A study of Vitis labrusca x Vitis vinifera with 9 samples.

Results

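Dormant grapevine buds were examined 24 h after pruning (P) on 3 of the 9 arrays of the series, the 3 whose labels name pruning as the treatment. Each P array carried RNA of buds on pruned canes, labeled with Cy5, against RNA of control buds, labeled with Cy3, and the log2 ratio of Cy5 to Cy3 was read at all 30128 grapevine probes, of which 26395 were bright enough to be tested. The plants were 5-year-old vines of the table grape Kyoho, a hybrid of Vitis labrusca and Vitis vinifera, and the bud taken was the 8th from the base of a mature cane in late August. For P the cane was cut 2 cm from the node, and the methods of the study name no spray for these buds. For hydrogen cyanamide (HC) the bud received 1% of that dormancy-breaking chemical, and for PHC the cane was cut and the bud received the chemical. The control was water on a bud of an uncut cane. The labels describe the HC canes as pruned whereas the methods of the study describe them as not pruned, and this affects only the values set beside HC. The canes had been divided into 3 blocks, a replicate was a pool of buds on 10 single nodes, and nothing given shows whether vines were shared between pools. A p-value thus measures spread between pools and not between vines. That spread was estimated over all 9 arrays and moderated over all tested probes, so the HC and PHC arrays also enter the p-values of P.

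In summer an axillary bud of grapevine is paradormant, which means that the growing shoot and not the bud itself holds it back. Cutting the cane takes away that inhibition, known as apical dominance, in which auxin moving down the stem restrains bud outgrowth and cytokinin promotes it. A bud that resumes growth loosens its cell walls, re-enters the cell cycle and draws on sugars and nitrogen, and the results below are ordered by these roles.

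Pruned buds gave 725 probes called higher than the control, 2.75% of the tested probes, and 151 called lower, which is 0.572%. These shares, together 3.32%, are the measure for the counts of gene groups below. A call required a Benjamini-Hochberg adjusted p under 0.05 in limma's moderated test over all tested probes and a change of at least 2-fold, which is 1 on the log2 scale. All 876 called probes had one sign on the 3 arrays. The median called rise had a log2 ratio of 1.40, with a median signal of 934 in P buds and 306 in control buds, and 145 rises reached 4-fold. The median called fall was -1.17, with median signals of 1020 in P buds and 2433 in control buds, and only 2 falls reached 4-fold. At an unadjusted p under 0.05 and no fold limit the numbers were nearly even, 3720 higher and 3792 lower.

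The 3 P arrays did not weigh equally in these counts. The standard deviation of the log2 ratios was 0.575, 0.585 and 0.465 on P replicates 1, 2 and 3, and the arrays correlated over the tested probes at 0.59 for replicates 1 and 2, 0.52 for 1 and 3, and 0.85 for 2 and 3. Without P replicate 2 the counts fell to 208 higher and 48 lower, and without P replicate 3 to 434 higher and 112 lower, against 560 and 102 without P replicate 1. Of the called probes, 192 rises and 43 falls kept their call without any single one of the 9 arrays, and such a probe is called stable below. The dyes were not exchanged on any array, so a dye effect of a probe cannot be told apart from an effect of pruning. In a whole bud, more cells of a type and more RNA per cell cannot be told apart either. Of the lists of cell type markers, only leaf genes were found by name, and their 6 probes were above background in both channels, with log2 ratios from -0.36 to 0.04 and 0 called.

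**Figure D1:**
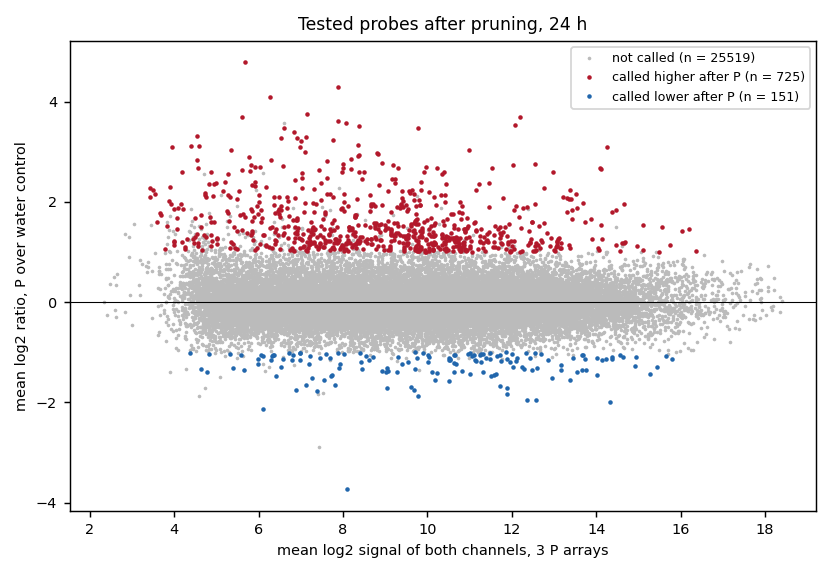
Mean log2 ratio of P over water control (vertical axis) against the mean log2 signal of both channels (horizontal axis) for each tested probe, averaged over the 3 P arrays, with called probes colored. The 725 called rises outnumber the 151 called falls and reach farther from 0, while the median of all tested probes lies at -0.03.

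Several genes of the cell wall rose after pruning, though most listed ones were not called. Pectin is the gel between the cellulose fibers of a growing wall, which pectinesterases demethylate and polygalacturonases and pectate lyases then cut. Of 48 tested genes on the list of pectin-modifying enzymes, 14 were higher, 0 lower and 34 not called, a share higher of 29.2% against 2.75% of all tested probes, with a median log2 ratio of 0.14 over the list against -0.03 over all. Without P replicate 1, 2 or 3 the count was 8, 5 or 7, and 5 rises were stable. The list was matched by the description of the Arabidopsis homolog. Its rises include an inhibitor gene (GSVIVT00029887001). They also include genes that the study names crocetin glucosyltransferase (GSVIVT00002554001) and ripening-related protein (GSVIVT00029882001). Under the annotation term cell wall, which was chosen after its values were seen, 16 of 56 genes were higher, 0 lower and 40 not called. The share higher was 28.6%, against 2.75% of all tested probes, and 12, 5 or 12 were higher without P replicate 1, 2 or 3.

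The polygalacturonase At1g48100-type gene GSVIVT00002737001 had log2 ratios of 2.65, 3.69 and 3.28 on P replicates 1, 2 and 3 (mean 3.21 ± 0.53, SD, n = 3; adjusted p = 6.25e-04). Its signals were 276, 708 and 306 in P buds, against 31.5 to 54.7 in the 3 control pools, so that every pruned pool lay above every control pool. This rise was stable, although normexp background correction with loess brought it down to 1.66. A second gene of that name, GSVIVT00019678001, had ratios of 1.40, 1.84 and 1.59 and was also stable. GSVIVT00026920001, a probable polygalacturonase, had ratios of 1.65, 3.64 and 2.88, and its call was lost without P replicate 2 (mean 2.26) or P replicate 3 (mean 2.65).

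Among the enzymes that act before and beside the polygalacturonases, the pectate lyase family gene GSVIVT00000608001 had log2 ratios of 1.58, 2.12 and 1.51, a stable rise. Probable pectinesterase/pectinesterase inhibitor 12 (GSVIVT00016358001) had 1.69, 1.63 and 1.51, and the like-named inhibitor 51 (GSVIVT00034843001) had 1.61, 2.40 and 1.68. Both have a domain that holds the enzyme inactive and a domain that removes methyl groups, and both rises were stable. Probable pectinesterase 53 (GSVIVT00016652001) had 0.95, 2.82 and 1.64, a wider spread that was stable all the same. An invertase/pectin methylesterase inhibitor gene (GSVIVT00029887001), which names a protein that blocks such enzymes, averaged 1.16 ± 0.31 (SD, n = 3), a call lost without P replicate 1 (mean 1.00), 2 (mean 1.20) or 3 (mean 1.30).

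Wall loosening outside pectin is carried out by expansins, which let the wall creep without cutting it, and by xyloglucan endotransglycosylases, which cut and rejoin the tethers between cellulose fibers. Expansin-A1-like (GSVIVT00036942001) had log2 ratios of 2.16, 3.32 and 2.82 (mean 2.76 ± 0.58, SD, n = 3; adjusted p = 0.00120), with signals of 11900, 20730 and 15100 in P buds, against 2671, 2079 and 2142 in control buds. It was thus among the brightest of the risen genes and a stable one. An expansin-like gene (GSVIVT00000851001) had ratios of 1.92, 3.19 and 2.65 and was stable, while expansin-A4 (GSVIVT00023946001) had a mean of 1.16 and lost its call without P replicate 2 (mean 1.01). The list of expansins and xyloglucan enzymes held no tested expansin. All 6 of its tested genes were xyloglucan enzymes, of which 3 were higher and 0 lower, against 2.75% higher of all tested probes.

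The largest of those 3 was GSVIVT00006913001, with log2 ratios of 3.47, 3.15 and 1.96 and signals of 543, 1268 and 721 in P buds, against 49.0, 142 and 185 in control buds. Its call against the control was lost without P replicate 1 (mean 2.56) or P replicate 2 (mean 2.72). GSVIVT00000619001, a probable xyloglucan endotransglucosylase, averaged 1.44 ± 0.26 (SD, n = 3) and was stable, but normexp with loess left 0.99. Endoglucanase 24 (GSVIVT00035959001), of a family that cleaves beta-1,4-glucans, averaged 2.16 ± 0.50 (SD, n = 3) and was stable, as was a glycosyl hydrolase family 17 gene (GSVIVT00030570001) at 1.54, 1.75 and 1.40.

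On the list of extensins, proline-rich and arabinogalactan proteins, structural proteins of the wall, 3 of 44 genes were higher, 0 lower and 41 not called, with a median of 0.01. That is 6.82% higher, against 2.75% of all tested probes. A set of genes shared by the treatments was chosen by the study on these very arrays, so the direction of its members is not independent evidence. All 7 of its proline-rich cell wall proteins were higher after P, 2 of them stable. The 36.4 kDa proline-rich protein GSVIVT00016962001 had log2 ratios of 2.03, 2.63 and 2.04, a stable rise. The related GSVIVT00009622001 had 1.70, 5.09 and 3.83, a mean of 3.54 that lost its call without P replicate 2 (mean 2.76) or P replicate 3 (mean 3.40). Most of these proteins also carry the annotation lipid transport, under which 8 of 31 genes were higher and 0 lower, 2 of them stable. The share higher was 25.8%, against 2.75% of all tested probes.

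**Figure D2:**
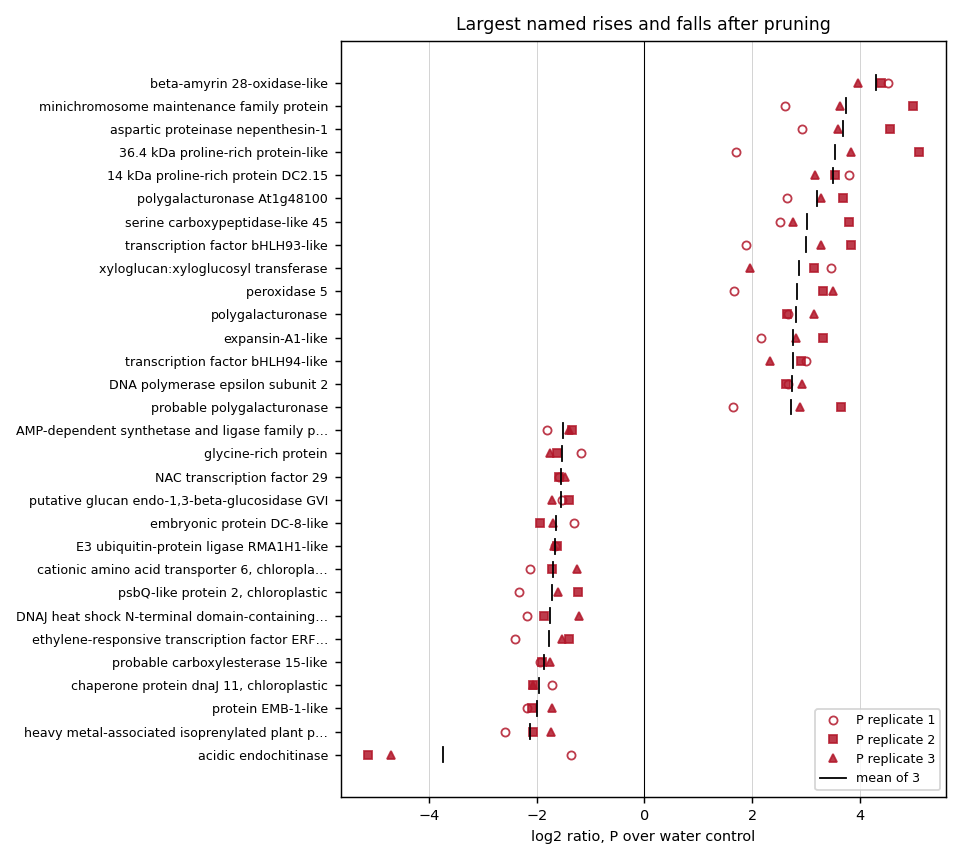
Log2 ratio of P over water control (horizontal axis) on each P array for the named genes of largest rise and of largest fall, with 1 marker shape per replicate and a bar at the mean of 3. Replicate 1 stands apart for several genes, for example the 36.4 kDa proline-rich protein-like gene at 1.70 against 5.09 and 3.83, and the acidic endochitinase at -1.37 against -5.13 and -4.70.

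The highest share of called members among the annotation terms examined was that of manganese ion binding, where 18 of 46 genes were higher and 0 lower, against 2.75% of all tested probes, and the term was chosen after its values were seen. The term gathers germin-like proteins, cupin-fold glycoproteins of the cell wall that bind manganese and of which some make hydrogen peroxide. Of the 18, 15 lie in one stretch of model numbers from GSVIVT00022776001 to GSVIVT00022827001, so their probes may share targets and cannot be counted as 15 separate genes. Over these 15 the log2 ratios ran from 0.28 to 1.06 on P replicate 1, from 1.41 to 3.14 on P replicate 2 and from 1.45 to 3.05 on P replicate 3, so that the highest value of replicate 1 lay below the lowest of both other arrays. Accordingly 17 members of the term were called without P replicate 1, 3 without P replicate 2 and 11 without P replicate 3.

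GSVIVT00022823001, named germin-like protein subfamily 1, was the stable member with the largest rise, at 1.06, 2.69 and 2.70, with signals of 851, 2515 and 2396 in P buds, against 407, 391 and 369 in control buds. Its control signals were level over the pools and its pruned signals were not. GSVIVT00022827001 of the same subfamily had 0.96, 3.14 and 3.05 and lost its call without P replicate 2 (mean 2.01). A member outside the stretch, GSVIVT00016457001, ran the other way, with 3.41, 2.00 and 1.19, and lost its call without P replicate 1 (mean 1.59) or P replicate 2 (mean 2.30).

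Under copper ion binding 18 of 163 genes were higher and 0 lower, with a median over the term of -0.06. The share higher was 11%, against 2.75% of all tested probes. Of the 18, 6 were stable. GSVIVT00005404001, which the files annotate only with copper ion binding, had log2 ratios of 2.34, 3.94 and 3.01. GSVIVT00007292001, whose Arabidopsis homolog is AT4G12420, had 2.26, 2.64 and 1.73 and lost its call without P replicate 2 (mean 1.99), and basic blue protein-like (GSVIVT00014320001), a small blue copper protein, had 3.89, 1.74 and 2.10. The blue protein lost its call without P replicate 1 (mean 1.92), 2 (mean 3.00) or 3 (mean 2.82), and 14, 6 and 10 genes of the term were called without P replicate 1, 2 and 3.

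Some proteases rose as well. Under serine-type carboxypeptidase activity, a term for enzymes that trim proteins from their carboxyl end, 10 of 55 genes were higher, 0 lower and 45 not called. The share higher was 18.2%, against 2.75% of all tested probes. Of the rises 5 were stable, and 10, 5 and 5 were called without P replicate 1, 2 and 3. Serine carboxypeptidase-like 45 (GSVIVT00023266001) had log2 ratios of 2.52, 3.81 and 2.76, and GSVIVT00031351001, known here by the term alone, had 2.18, 4.44 and 4.08. Both were stable, and the signals of the second were 334, 2039 and 1156 in P buds, against 73.8, 94.1 and 68.6 in control buds. Its neighbors GSVIVT00031348001 and GSVIVT00031349001 averaged 3.47 and 2.46, and since the 3 models are closely numbered their probes may share a target. The first of these neighbors lost its call without P replicate 2 (mean 3.17) or P replicate 3 (mean 3.17), and the second was stable.

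Aspartic proteases gave 7 of 52 genes higher, 1 lower and 44 not called, with a median of 0.01, and on the list of subtilases and aspartic proteases 3 of 31 were higher and 0 lower. The shares higher were 13.5% and 9.68%, against 2.75% of all tested probes. Nepenthesin-1 (GSVIVT00015118001), named after the enzyme of pitcher plant fluid, had log2 ratios of 2.92, 4.56 and 3.60, with signals of 13670, 24630 and 14030 in P buds, against 1810, 1041 and 1158 in control buds. The pruned pools did not overlap the control pools and the rise was stable. GSVIVT00030279001, named for a chloroplast nucleoid DNA-binding protein of the same protease class, averaged 2.17 ± 0.36 (SD, n = 3) and was stable too.

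Folding factors of the endoplasmic reticulum, which secreted proteins need, were higher for all 6 members of the study's set shared by the treatments, but only 1 of the 6 rises was stable. That one was the calnexin homolog (GSVIVT00011650001), a lectin chaperone of new glycoproteins, with log2 ratios of 1.73, 2.79 and 1.36 and signals of 39080, 77240 and 44500 in P buds, against 11780, 11130 and 17290 in control buds. Luminal-binding protein 5-like (GSVIVT00037232001), the Hsp70 of that compartment, averaged 1.61 and lost its call without P replicate 2 (mean 1.32). That set was chosen for such rises, and on the list of endoplasmic reticulum folding, matched by name, 0 of 2 genes were called.

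**Figure D3:**
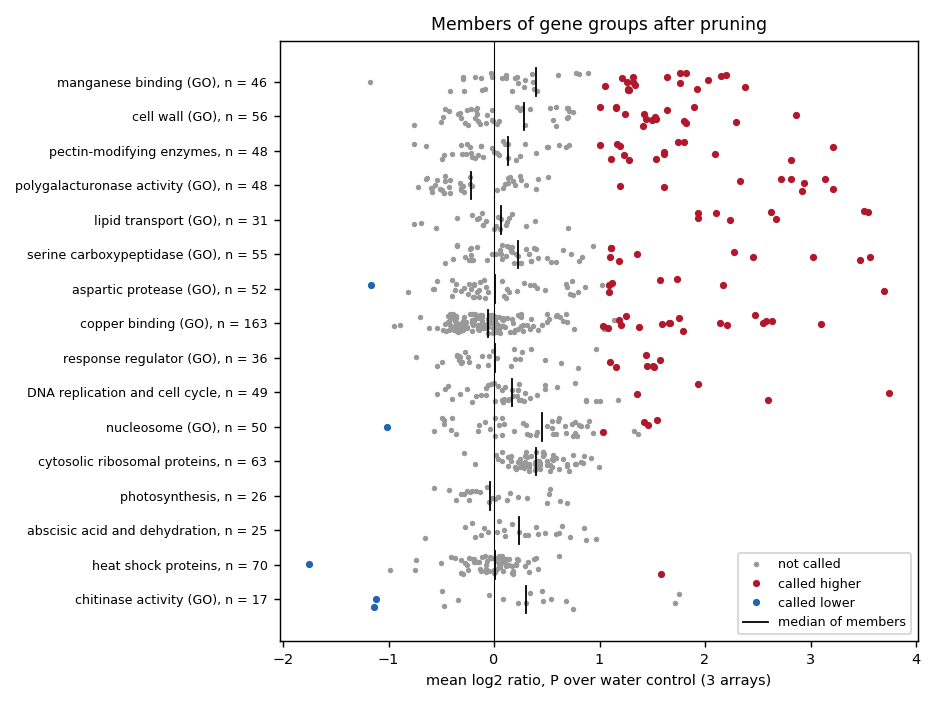
Mean log2 ratio of P over water control (horizontal axis) for every tested member of 16 gene groups, with called members colored and a bar at the median of each group. Called rises crowd the manganese, cell wall, pectin and carboxypeptidase groups, whereas the cytosolic ribosomal proteins, from -0.29 to 1.00 with a median of 0.40, have 0 called. Over all tested probes 3.32% were called.

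Few genes of DNA replication were called, with large ratios. Before a cell copies its DNA, the MCM helicase is loaded on the chromosome by licensing factors such as CDT1, and polymerases follow. The list of DNA replication and cell cycle also took in kinesins, the motors of the spindle, by their names, and of its 49 tested genes 4 were higher and 0 lower, with a median of 0.17. The share higher was 8.16%, against 2.75% of all tested probes. Without P replicate 1, 2 and 3 the count was 3, 0 and 2. The largest was a minichromosome maintenance gene, GSVIVT00005616001 (homolog AT2G07690), with log2 ratios of 2.61, 4.99 and 3.62 (mean 3.74 ± 1.20, SD, n = 3; adjusted p = 0.00932). Its signals were 220, 1011 and 635 in P buds, against 36.2, 31.7 and 51.5 in control buds, which puts every pruned pool above every control pool. Its call was nonetheless lost without P replicate 2 (mean 3.12, adjusted p = 0.0940) or P replicate 3 (mean 3.80, adjusted p = 0.0549).

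GSVIVT00003433001 (homolog AT5G46280) and GSVIVT00035935001 (homolog AT2G16440) are described as replication licensing factors. That description does not tell subunits of the MCM helicase from its loaders. Both genes had the same order over the arrays, with 1.67, 3.52 and 2.58 for the first and 1.21, 2.52 and 2.07 for the second. For the first the call was lost without P replicate 2 (mean 2.13) or P replicate 3 (mean 2.60), and for the second without P replicate 2 (mean 1.64). CDT1-like protein a (GSVIVT00007506001), which brings the helicase to the origin, was not well above background in any control pool, and its rise was at least 11.4-fold. This bound sets its mean P level against the lowest level well above background, and the call was lost without P replicate 2. Not every replication gene moved with these. Another listed gene with a minichromosome maintenance description, GSVIVT00010540001, averaged 0.01. The 2 listed subunits of replication factor C, the clamp loader, averaged -0.26 (GSVIVT00001122001) and -0.17 (GSVIVT00015413001). Outside the list, DNA polymerase epsilon subunit 2 (GSVIVT00017548001), part of the leading strand polymerase, had 2.66, 2.63 and 2.93, a narrow spread and a stable rise on dim signals of 70.2, 244 and 180 in P buds, against 11.1, 39.4 and 23.7 in control buds. With normexp and loess its mean was 0.91 and it was not called.

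Some regulators of the cell cycle and chromatin rose too. Under regulation of the cell cycle, 5 of 44 genes were higher and 0 lower. The share higher was 11.4%, against 2.75% of all tested probes. Of the 5, GSVIVT00036638001 (homolog AT4G34160) had log2 ratios of 1.71, 1.65 and 1.47. Its signals were 6860, 12220 and 12000 in P buds, against 2102, 3904 and 4342 in control buds. GSVIVT00019560001 had 1.31, 1.93 and 1.53 and GSVIVT00001426001 had 1.58, 2.17 and 1.59, and all 3 rises were stable. SNF2 domain-containing protein GSVIVT00020178001, of a family that moves nucleosomes, averaged 2.70 and lost its call without P replicate 2 (mean 2.49).

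Under nucleosome 4 of 50 genes were higher and 1 was lower, and 0 of these calls was stable. The share higher was 8%, against 2.75% of all tested probes. The median of the term was 0.45 against -0.03 over all tested probes. Median centring in place of loess, after normexp, called 19 members higher, so that the count rests on how the arrays were scaled. The 4 genes that carry a histone description had means between 0.61 and 0.78, below the 2-fold limit, and histone H4 (GSVIVT00018517001) had 0.62, 1.03 and 0.59. Cytosolic ribosomal proteins, the building blocks of translation, had medians of 0.17, 0.61 and 0.43 on P replicates 1, 2 and 3 over 63 genes, with 0 called higher or lower, and 14 called higher under median centring. The share called over all tested probes was 3.32%.

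Response regulators are the last step of the phosphorelay that cytokinin sets off, and some of them are induced by the hormone. Of 36 genes with two-component response regulator activity, a term chosen after its values were seen, 7 were higher and 0 lower, 5 of them stable. The share higher was 19.4%, against 2.75% of all tested probes. GSVIVT00016174001 (homolog AT3G48100) had log2 ratios of 1.73, 1.85 and 1.14, with signals of 3812, 5185 and 2741 in P buds, against 1152, 1437 and 1248 in control buds. The 4 models from GSVIVT00030940001 to GSVIVT00030944001 had means between 1.44 and 1.51, on P replicate 3 between 1.02 and 1.19 and on the other arrays from 1.46 up. They were all stable, but they are closely numbered and their probes may share a target. ARR9 (GSVIVT00000667001) averaged 1.10 and lost its call without P replicate 1 (mean 0.95) or P replicate 2 (mean 1.11).

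Of 5 cytokinin enzymes in the study's set shared by the treatments, which was chosen on these arrays, 4 were higher and 1 lower. Of these calls 2 rises and the fall were stable, and with normexp and loess 0 were called. A probable cytokinin riboside phosphoribohydrolase (GSVIVT00024794001), which frees the active base, averaged 1.31 ± 0.38 (SD, n = 3), a stable rise that normexp with loess lowered to 0.92. A zeatin O-glucosyltransferase-like gene (GSVIVT00025630001), which stores cytokinin as a glucoside, fell to a mean of -1.23 ± 0.09 (SD, n = 3), with -0.64 under normexp and loess. The list of auxin transport and response had 2 of 21 genes higher and 0 lower, neither rise being stable. That is 9.52% higher, against 2.75% of all tested probes. Auxin-induced protein X10A-like (GSVIVT00036017001) had 1.18, 2.77 and 2.07 and lost its call without P replicate 2 (mean 1.62) or P replicate 3 (mean 1.97). Abscisic acid, a hormone of dormancy, had 0 of 25 listed genes called in either direction, with a median of 0.24. With 3.32% of all tested probes called, 0 in so short a list is close to that share.

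Transcription factors moved in both directions, 13 of 290 under that annotation term being higher and 6 lower, 4.48% higher against 2.75% of all tested probes. The bHLH93-like gene GSVIVT00017700001 had log2 ratios of 1.89, 3.84 and 3.27 and bHLH149 (GSVIVT00018915001) averaged 1.47 ± 0.02 (SD, n = 3). Both rises were stable. Stable rises were also found for NAC domain-containing protein 86 (GSVIVT00015787001), which in Arabidopsis acts in the formation of sieve elements, at 3.77, 3.44 and 2.58, and for CONSTANS-LIKE 4 (GSVIVT00025685001) at a mean of 2.08. ERF061 (GSVIVT00002438001), of the family of ethylene response factors, was not well above background in the control and rose at least 3.79-fold, a call lost without P replicate 2.

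The fallen transcription factors included regulators known from seeds and stress. FUSCA3-type B3 protein (GSVIVT00037932001), which in Arabidopsis directs embryo maturation, averaged -1.37 ± 0.19 (SD, n = 3) and was stable. ABSCISIC ACID-INSENSITIVE 5 (GSVIVT00021625001), a bZIP factor of abscisic acid signaling, averaged -1.17 ± 0.20 (SD, n = 3), and its call was lost without P replicate 1, 2 or 3, with means of -1.06, -1.25 and -1.21. The NAC gene GSVIVT00036931001 had -1.59, -1.58 and -1.47, the MYB family gene GSVIVT00037318001 (homolog AT5G04760) had -1.48, -1.49 and -1.44, and REVEILLE 1 (GSVIVT00023467001), a MYB-like factor of the clock and of seed dormancy in Arabidopsis, averaged -1.32. All 3 falls were stable and their replicates lay close together.

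On the list of late embryogenesis and cold-induced proteins 1 of 9 genes was lower, 0 higher and 8 not called, with a median of -0.08. Of all tested probes 0.572% were lower, and a single gene in so short a list says little about the list. Further genes named for seeds, cold or chaperones were found among the falls, and they are described here because their falls were large. Protein EMB-1-like (GSVIVT00029315001), a late embryogenesis protein, had log2 ratios of -2.18, -2.09 and -1.72, with signals of 8143, 11220 and 11780 in P buds, against 36880, 47640 and 38800 in control buds. The transcript was thus among the brightest of the control bud and still bright after pruning. Chaperone protein dnaJ 11 (GSVIVT00036090001) had -1.72, -2.07 and -2.07, and the low temperature-induced protein lt101.2 (GSVIVT00023117001) averaged -1.25, both stable falls. Chaperones did not fall as a group. On the list of DnaJ chaperones 1 of 56 genes was higher and 1 lower, with a median of 0.03, against 2.75% and 0.572% of all tested probes. The higher one, GSVIVT00025539001, averaged 1.58, a rise that was not stable. An oleosin-type gene (GSVIVT00032135001), which coats oil bodies, had -1.18, -1.63 and -1.76 but lost its call without any P array (means -1.70, -1.47 and -1.40 without P replicates 1, 2 and 3).

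Carboxylesterase 15-like (GSVIVT00027106001) had -1.94, -1.90 and -1.76, asparagine synthetase (GSVIVT00024074001), which packs nitrogen for storage and transport, averaged -1.43, and E3 ubiquitin-protein ligase RMA1H1-like (GSVIVT00027654001) had -1.67, -1.62 and -1.67. The median SD over the 3 arrays was 0.20 for called falls, 0.39 for called rises and 0.17 for all tested probes. Of the called falls 144 of 151 were above background in both channels on all P arrays, against 601 of the 725 called rises. For 51 rises the control was not well above background on any P array, since 1 bright channel was enough for a probe to be tested.

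Sugar and nitrogen transport changed gene by gene. Of 32 listed genes of sugar transport and starch 3 were higher and 1 lower, and of 26 of nitrate, amino acid and peptide transport 3 were higher and 1 lower. The shares higher were 9.38% and 11.5%, against 2.75% of all tested probes. Protein NRT1/PTR FAMILY 1.2 (GSVIVT00034361001), in Arabidopsis a nitrate transporter of the phloem, had log2 ratios of 1.49, 1.58 and 1.37 (adjusted p = 6.25e-04), a stable rise. NRT1/PTR FAMILY 6.3 (GSVIVT00009628001), the dual-affinity nitrate transporter and sensor, fell to -1.16 ± 0.01 (SD, n = 3), likewise stable. Sucrose synthase (GSVIVT00016378001), which cleaves sucrose for use in growing tissue, averaged 1.98 ± 0.48 (SD, n = 3), and the MtN3 family gene GSVIVT00033013001 had 1.36, 1.34 and 1.34. The sucrose synthase rise was stable, whereas the MtN3 gene lost its call without P replicate 2 (mean 1.35). SWEET14 (GSVIVT00017991001), a sugar exporter, had a mean of -1.13 that lost its call without P replicate 1 (mean -1.31), 2 (mean -1.04) or 3 (mean -1.02).

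Metabolic genes with large rises included 3-dehydroquinate dehydratase/shikimate dehydrogenase (GSVIVT00008901001), which feeds the synthesis of aromatic amino acids, with a mean of 2.60 ± 0.39 (SD, n = 3), a stable rise. Flavonoid 3',5'-hydroxylase 2 (GSVIVT00000646001), of anthocyanin synthesis, averaged 2.68 ± 0.22 (SD, n = 3) and lost its call without P replicate 2 (mean 2.79). Respiration and photosynthesis gave 0 of 33 and 0 of 26 listed genes called in either direction, with medians of 0.24 and -0.03. Over all tested probes 3.32% were called, so 0 in lists this short is close to that share.

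None of the 12 genes of reactive oxygen and nitrogen metabolism that the study followed by qRT-PCR was called after pruning. With 3.32% of all tested probes called, 0 of 12 is close to that share. The group holds the respiratory burst oxidases VvRBOHA and VvRBOHE, which make superoxide, the peroxidases VvPOD72 and VvPOD12, scavengers of reactive oxygen (catalase, ascorbate and glutathione peroxidases, superoxide dismutases), the dioxygenase VvDOX1 and the alternative oxidase VvAOX2, which the study counts with the scavengers, and hemoglobin VvHB2, which removes nitric oxide. Mean log2 ratios ran from -0.79 for VvPOD12 to 1.83 for VvDOX1. VvDOX1 (GSVIVT00020782001), which oxidizes fatty acids, had -0.48, 2.70 and 3.26 (adjusted p = 0.0946), so replicate 1 lay below the control and the others far above it, and without P replicate 1 it was called (mean 2.98). VvPOD72 is the study's qRT-PCR name for GSVIVT00031598001, which another of its lists names cationic peroxidase 2-like, and it is a different probe from the one named peroxidase 72. It had 3.11, 0.70 and 0.95 (adjusted p = 0.174), with replicate 1 the high one, and it was called when HC replicate 3 was left out of the common estimate of spread.

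VvPOD12 (GSVIVT00031723001) had -0.82, -0.85 and -0.69 with an adjusted p of 0.0177, short of 2-fold, and VvRBOHA (GSVIVT00002525001) had -0.69, -0.70 and -0.53 (adjusted p = 0.0535). VvCAT1 (GSVIVT00004080001), the catalase that breaks down hydrogen peroxide, had 0.00, -0.54 and -0.50 on very bright signals of 193900, 162400 and 182900 in P buds, against 193500, 235800 and 258800 in control buds. VvHB2 (GSVIVT00036443001) had -1.37, 0.02 and -0.22. Since these peroxidases belong to a large family whose members are easily confused, the qRT-PCR primers of the 2 peroxidase genes are given from the study's primer list, 5′ to 3′, all in lower case because no base in them is marked.
VvPOD72 forward: tgcccctggcctgctt
VvPOD72 reverse: gcatcacagcccctgacaa
VvPOD12 forward: cgccgctggcttgct
VvPOD12 reverse: ggcatcacatccctgaacaaa

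**Figure D4:**
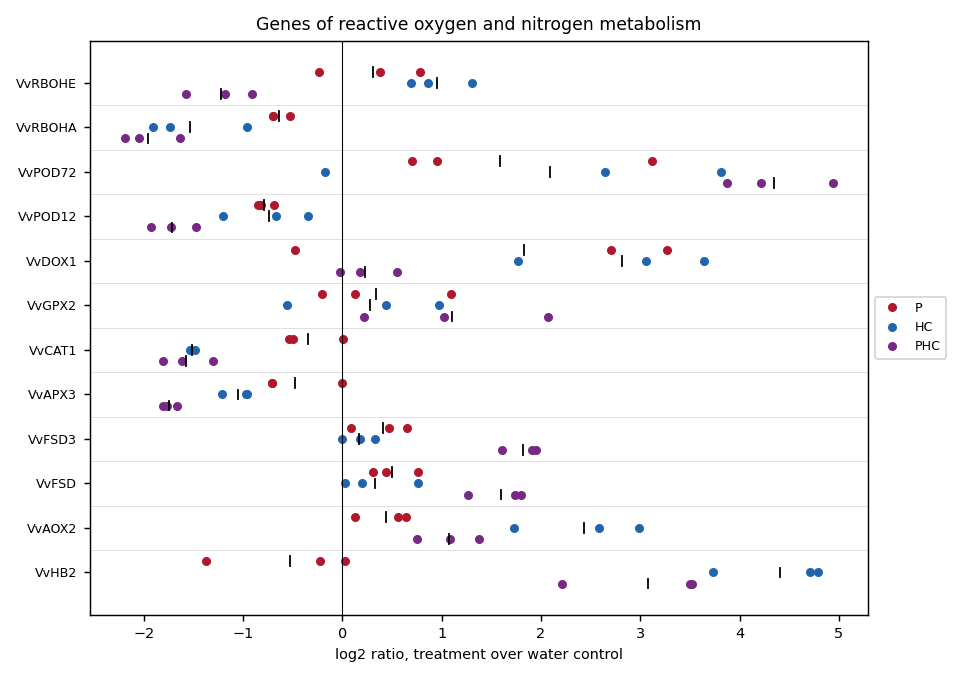
Log2 ratio over water control (horizontal axis) on each array for the 12 genes followed by qRT-PCR, with P above HC above PHC in each row, 1 point per array and a bar at the mean of 3. After P the points stay near 0 for most genes, and those of VvDOX1 and VvPOD72 are split by replicate, for example -0.48 against 2.70 and 3.26.

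On the list of class III peroxidases, secreted heme enzymes that both cross-link and loosen the wall, 5 of 24 genes were higher and 0 lower. The share higher was 20.8%, against 2.75% of all tested probes. VvPOD12 is among the 24, as is a glutathione peroxidase that the list took in by name. Under peroxidase activity 8 of 74 genes were higher and 2 lower, 10.8% higher against 2.75% of all tested probes. Peroxidase 72 (GSVIVT00036874001), not to be taken for VvPOD72, had log2 ratios of 1.06, 1.23 and 1.24, the only stable rise of the list. Peroxidase 29 (GSVIVT00033150001) had 1.19, 1.65 and 1.28 and lost its call without P replicate 2 (mean 1.23). Peroxidase 5 (GSVIVT00037159001) had 1.65, 3.32 and 3.50, and its call was lost without P replicate 2 (mean 2.58) or P replicate 3 (mean 2.49).

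Set beside HC in the same fit, pruned buds were higher at 827 probes, 3.13% of those tested, and lower at 883, which is 3.35%, together 6.48%. Without HC replicate 2 the count of higher probes was 1314, and without P replicate 2 or 3 it was 418 or 477. Of the 725 rises after P, 240 were also above HC and 33 were below it, and of the 151 falls 16 were also below HC and 3 were above it. Both treatments were measured against the water control, so the difference of the 2 ratios is the test.

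Under cell wall, 20 of 56 genes were higher after P than after HC and 2 lower, against 3.13% and 3.35% of all tested probes, with a median difference of 0.55 on the log2 scale, and all 4 risen genes of the stretch from GSVIVT00031398001 to GSVIVT00031412001 were among the higher ones. The xyloglucan enzyme GSVIVT00006913001 had log2 ratios of 3.47, 3.15 and 1.96 after P, against -2.63, -0.36 and -1.08 after HC, a difference of 4.22 (adjusted p = 0.00570). A second one, GSVIVT00033487001, had 1.17, 1.94 and 1.37 after P, against -0.56, -0.32 and -1.59 after HC. Every P array lay above every HC array for both, and both differences were called without any single array. The pectate lyase GSVIVT00000608001 averaged 1.74 after P and 0.09 after HC, also a difference that was called without any array.

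On the list of DNA replication and cell cycle 6 of 49 genes were higher after P than after HC and 0 lower. Of all tested probes 3.13% were higher and 3.35% lower. Of the 6, 4 are kinesins that were not called against the control and 2 are replication genes. Those 2 were GSVIVT00035935001, with a difference of 1.71 (adjusted p = 0.0317), and GSVIVT00005616001, while the licensing factor GSVIVT00003433001 differed by 2.49 and was not called (adjusted p = 0.0597). The first lost its call without P replicate 2 or 3, HC replicate 1 or 3 or PHC replicate 2. The minichromosome maintenance gene GSVIVT00005616001 had 2.61, 4.99 and 3.62 after P, against 1.48, 0.99 and -2.00 after HC, a difference of 3.59 (adjusted p = 0.0391). The HC arrays disagreed in sign, and the call was lost without P replicate 2 or 3, HC replicate 3 or any PHC array. GSVIVT00036638001 of cell cycle regulation averaged 1.61 after P and 0.52 after HC, a difference of 1.09 whose call was lost without P replicate 1, 2 or 3 or HC replicate 3.

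Carboxypeptidases gave 9 genes of 55 higher after P than after HC and 1 lower, against 3.13% and 3.35% of all tested probes. For GSVIVT00031349001 the difference was 2.60 (adjusted p = 7.45e-04), with 2.13, 2.69 and 2.55 after P, against -0.21, 0.31 and -0.53 after HC, and it was called without any single array. Copper proteins went both ways, 12 of 163 being higher after P than after HC and 42 lower, to be set beside the same shares. In acyltransferase activity, a term that holds the stilbene synthases, 38 of 73 genes were lower after P than after HC and 3 higher. Over all tested probes 3.35% were lower and 3.13% higher. The median difference of the term was -2.72. The synthases may be near-identical copies that share probe targets, in which case these counts do not stand for separate genes.

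Far below HC were dirigent protein 22 (GSVIVT00024744001), of lignan coupling, with a difference of -5.87, ethylene-responsive transcription factor 1B-like (GSVIVT00002192001) with -5.30, and VvHB2 with -4.94. The ERF1B-like gene had log2 ratios of 1.48, -0.66 and -0.79 after P and a mean of 5.31 after HC. All 3 differences were called without any single array. Among the qRT-PCR genes VvAOX2 was also below HC, by -1.99, and VvCAT1 above it, by 1.17, a call lost without P replicate 1.

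Pruned buds were higher than PHC buds at 1271 probes (4.82%) and lower at 1281 (4.85%), together 9.67%, and without PHC replicate 3 these were 850 and 763. Of the rises after P, 190 were lower than after PHC and 14 higher, and of the falls 79 were higher and 5 lower, so that where they differed the change after P was mostly the smaller one. That order depends on scale: with every array scaled to one spread only 74 probes were higher and 115 lower. Of the 63 cytosolic ribosomal proteins 18 were below PHC and 0 above. For EMB-1-like the ratios were -2.18, -2.09 and -1.72 after P, against -3.80, -4.36 and -5.01 after PHC, a difference of 2.40 that shrank to 0.05 with arrays scaled to one spread.

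Of the 12 qRT-PCR genes, 7 differed between P and PHC on the deposited scale. VvRBOHE (GSVIVT00016386001) had -0.24, 0.78 and 0.38 after P and a mean of -1.22 after PHC, a difference of 1.53 (adjusted p = 0.00867), and VvRBOHA differed by 1.32, VvAPX3 by 1.28 and VvCAT1 by 1.23. Below PHC were VvHB2 by -3.60, VvFSD3 by -1.42 and VvFSD by -1.10. VvFSD lost its call without P replicate 1 or 3 or PHC replicate 1 or 3, and the other 6 were called without any single array, but with arrays scaled to one spread VvRBOHE differed by 1.32 (adjusted p = 0.104) and VvHB2 by -2.99 (adjusted p = 0.0567), neither of them called.

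Only 12 probes changed after P and also passed the test against both HC and PHC in the direction of P, 10 of them higher and 2 lower. Of the 10, 4 are closely numbered models with polygalacturonase activity, GSVIVT00025514001 to GSVIVT00025519001, of which GSVIVT00025516001 has the Arabidopsis homolog AT2G41850. Their mean log2 ratios ran from 2.33 to 3.14 after P, against -1.83 to -0.89 after HC and -0.74 to -0.59 after PHC. GSVIVT00025519001 had 1.40, 4.04 and 3.36 after P, against -2.06, -2.13 and -1.31 after HC and 0.54, -1.27 and -1.49 after PHC, with signals of 508, 1465 and 1058 in P buds and 193, 88.8 and 103 in their controls. The P arrays lay above all others, the differences from HC and PHC were 4.77 and 3.67, and both were called without any single array. Its call against the control was lost without P replicate 2 (mean 2.38) or P replicate 3 (mean 2.72), and the probes may share a target.

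The named members of the 10 were peroxidase 5, peroxidase 64 (GSVIVT00015486001) and a glutaredoxin family gene (GSVIVT00019806001), of small proteins that reduce disulfides. Peroxidase 5 averaged 2.83 in P buds, against 0.43 in HC buds and -0.45 in PHC buds. Its difference from HC was not called without P replicate 2 or 3, HC replicate 1 or 3 or any PHC array. Peroxidase 64 had 0.52, 1.44 and 1.09 after P, against -1.47, -1.33 and -1.79 after HC and -0.56, -0.43 and -1.30 after PHC. It was positive on every P array and negative on all 6 others, although its call against the control was lost without P replicate 2 (mean 0.81) or P replicate 3 (mean 0.98). The glutaredoxin gene had 2.05, 1.38 and 0.31 after P, and means of -1.42 in HC buds and -0.72 in PHC buds. Its call against the control was lost without P replicate 1 (mean 0.85) or P replicate 2 (mean 1.18), or without any PHC array, and its difference from PHC without P replicate 1 or 2 or PHC replicate 1 or 3. The 2 lower probes, GSVIVT00016080001 and GSVIVT00036504001, have no name in the files, and averaged -1.40 and -1.01 after P, the first lost without P replicate 2 (mean -0.95) or 3 (mean -1.33), the second without P replicate 1 (mean -0.93), 2 (mean -0.96) or 3 (mean -1.14).

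**Figure D5:**
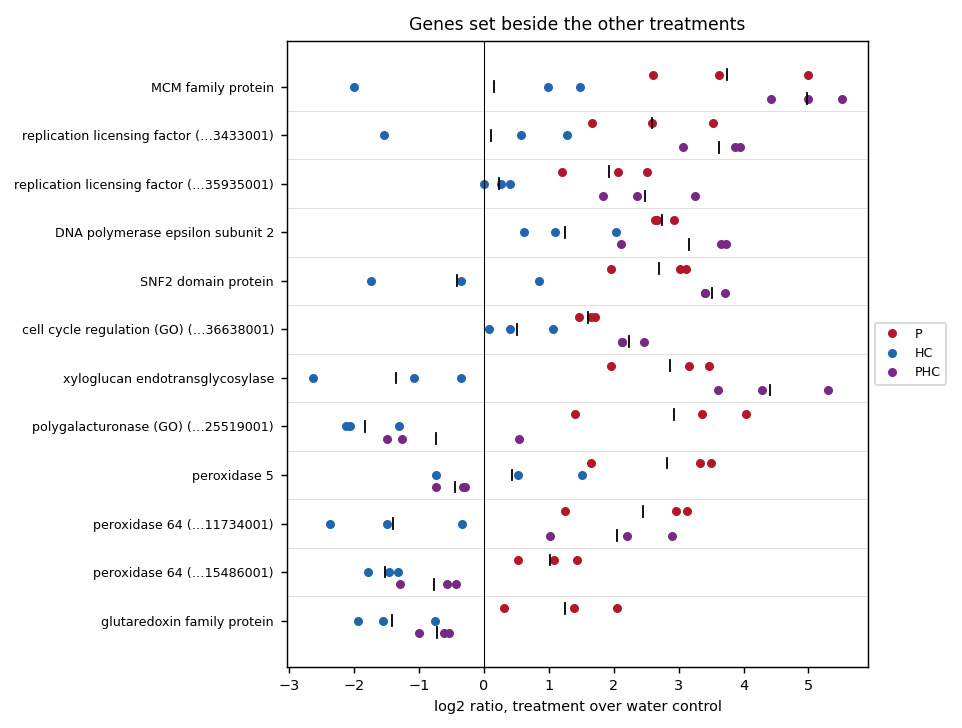
Log2 ratio over water control (horizontal axis) on each array for 12 genes set beside the other treatments, with P above HC above PHC in each row, 1 point per array and a bar at the mean of 3. The 3 replication genes at the top have means of at least 1.93 after P and at most 0.23 after HC. Of these, GSVIVT00003433001 was not called against HC, and the HC arrays of the MCM gene differ in sign. DNA polymerase epsilon subunit 2, in the row below them, has 2.74 after P and 1.25 after HC, a difference not called. The polygalacturonase gene GSVIVT00025519001 lies high after P only, at a mean of 2.93 against -1.83 after HC and -0.74 after PHC.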

How the data were processed

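RNA of buds was measured on 2-color 44K grapevine arrays of 60-base probes, 3 for each treatment. The authors deposited, per the labels and file headers, background-subtracted and dye-normalized intensity values of both channels from Feature Extraction 10.5 (submitters' processing notes), and a log2 ratio of Cy5 (treated) to Cy3 (water control) per probe, normalized by LOWESS on rank-consistent probes. The deposited linear ratio and p-value of each spot were not used as results. The series value table held the same log2 values rounded.

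Each probe's log2 ratio was fitted with limma 3.58.1 in R 4.3.3 over all 9 arrays, with a mean per treatment and no block. Outlier spots (81 values, 33 of them on P arrays) were left out, 3733 probes not well above background were not tested, and p-values were adjusted by Benjamini-Hochberg over 26395 probes. P minus HC and P minus PHC came from the same fit. The number of arrays limits the precision. The fit was tested on simulated data. Alternatives were normexp background correction (offset 50) with loess or median centring, scaling of the arrays, other filters, thresholds and designs, and each array left out.

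Names came from the study's gene lists or the files' Arabidopsis homologs, and closely numbered gene models may share probe targets. Genes named were those followed by qRT-PCR, the 15 largest rises and falls, those beyond both other treatments, the extreme differences between treatments, the leading genes of each list and families common to the treatments. Others, and all annotation terms, were chosen after their values were seen. The members and lists were chosen with earlier results of these data known.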

Additional observations from a re-analysis of the deposited data

Results flagged for a closer look

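Over all 26395 tested probes, 72 that were called higher after P were above the control on every P array, below it on every HC array and higher after P than after HC by limma's test, and 5 were so with both signs turned. Against PHC these counts were 3 and 2. The values here are for the probes the report names. Positive after P and negative after HC were ERF061 (GSVIVT00002438001), with a difference of 2.60, the xyloglucan enzymes GSVIVT00006913001 with 4.22 and GSVIVT00033487001 with 2.32, peroxidase 64 with 3.85 (GSVIVT00011734001) and 2.54 (GSVIVT00015486001), the glutaredoxin gene GSVIVT00019806001 with 2.67 and the pectin methylesterase inhibitor gene GSVIVT00029887001 with 2.00. So were the polygalacturonase models GSVIVT00025514001 with 4.46, GSVIVT00025516001 with 3.22 and GSVIVT00025519001 with 4.77, and GSVIVT00031412001 with 2.54. Negative after P and positive after HC were the unnamed GSVIVT00016080001, with a difference of -4.17, and GSVIVT00036504001 with -1.70.

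Positive after P and negative after PHC were peroxidase 64 (GSVIVT00015486001) with a difference of 1.78, the glutaredoxin gene with 1.97 and peroxidase 5 (GSVIVT00037159001) with 3.28. GSVIVT00016080001 was negative after P and positive after PHC, with -2.91. The call of GSVIVT00025516001 against HC was lost without P replicate 2 or 3, and the glutaredoxin call against PHC without P replicate 1 or 2 or PHC replicate 1 or 3. Groups of 3 arrays were too small to be searched for single outlying arrays.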

How the results depend on the processing

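Counts of called probes depended on the processing, and the cause was not tested beyond what each setting changes by construction. With normexp and loess, P had 458 higher and 71 lower, P minus HC 435 higher and P minus PHC 817 higher. With normexp and median centring, which moved the median of all tested probes to 0.10 against -0.03, P had 39 lower (875 higher), P minus HC 504 higher, and P minus PHC 392 higher and 2161 lower. With arrays scaled to one spread P had 1792 and 985, P minus HC 1312 higher, and P minus PHC 74 and 115. With no fold limit P had 1890 and 1304, P minus HC 1521 higher, and P minus PHC 3030 and 2729. At an adjusted p under 0.01 P had 409 and 89, P minus HC 346 and 547, and P minus PHC 740 lower. The share of P calls that were higher was 82.8%, against 95.7% with median centring, 64.5% with scaling and 59.2% with no fold limit. An unmoderated test on the P arrays alone, chosen after seeing the data, called 0 and 0 after Benjamini-Hochberg adjustment, and 603 and 143 at an unadjusted p under 0.05 with 2-fold.

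Leaving out 1 array at a time gave 208 to 795 higher and 48 to 158 lower for P, 418 to 1314 and 636 to 1090 for P minus HC, and 850 to 1415 and 763 to 1412 for P minus PHC. Calls kept without each of the 9 arrays and under both normexp settings were 159 higher and 15 lower. After the mean of each treatment was taken away, same-numbered arrays of different treatments correlated over 0.1 in 8 of 9 pairs. By these deviations every array correlated best, among the arrays of the other treatments, with one of its own number. The methods describe 3 blocks of canes but neither they nor the labels tie a replicate number to a block, and 1 pair was near 0, so the arrays were not treated as pairs. With the replicate number as a block P had 818 higher and 177 lower, P minus HC 1156 and 980, and P minus PHC 1396 and 1468, and 721 of the rises and all 151 falls after P kept their call.

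Signs turned for GSVIVT00021918001 under median centring (P, -0.50) and, with arrays scaled to one spread, for GSVIVT00002737001 in P minus HC (1.92) and for these in P minus PHC: GSVIVT00023266001 (1.25), GSVIVT00017700001 (1.45), GSVIVT00036942001 (1.52), GSVIVT00036017001 (0.53), GSVIVT00025242001 (0.12), GSVIVT00034361001 (0.45), GSVIVT00033150001 (0.10), GSVIVT00033013001 (0.29), GSVIVT00031887001 (0.38), GSVIVT00009148001 (-0.063), GSVIVT00036931001 (-0.28), GSVIVT00015734001 (-0.33) and GSVIVT00036090001 (-0.61). Median centring turned the sign of 77 of the 876 P calls. Of the other values of single genes and gene groups under alternatives, 7652 were counted as unchanged. For a single gene this means that no call was gained, lost or turned, so an uncalled gene may still have changed sign. For a gene group it means a count within 1.5 times the main one, including 0 in both. A further 414 lost the call, 139 gained one, and 609 counts moved by more than 1.5 times or to or from 0.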
